A study of Rattus norvegicus with 8 samples.

Results

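The extracellular matrix genes described here are 39 genes fixed as a list by what they encode: collagens, laminins, nidogens, elastic fibre proteins, adhesive and matricellular glycoproteins, and the enzymes and inhibitors that crosslink and remodel them. Each gene was represented by the probe set of highest mean log2 signal among those to which the platform annotation gives that symbol alone. A probe set was found for 38 of the 39 genes, out of 14217 genes named in this way on the array. The exception was Thbs1, which is not analysed here. All 38 passed the filter on dim probe sets, a mean signal above 28.2, which left 10446 genes for the test. They fell into 11 interstitial collagens, 10 basement membrane genes, 5 elastic fibre genes, 5 adhesive and matricellular genes and 7 genes of crosslinking and remodelling.

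Extraocular muscles, which move the eye, were taken from 8 adult Sprague-Dawley rats with a starting weight of 200 ± 40 g, and total RNA was measured on Affymetrix rat expression arrays, 1 array for each sample. In the hyperthyroid group (n = 4), rats had been given T3, the active thyroid hormone, at 25 µg for each 100 g of weight into the abdomen on alternate days over 6 weeks, and were killed 24 hours after the last dose. The control group (n = 4) was untreated, and the labels mention no sham injection. Arrays are named by group and title number, as hyperthyroid 1, 2, 3 and 5, and as control 7, 8, 9 and 11.

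The matrix of skeletal muscle is made mostly by fibroblasts. Its interstitial part holds fibrils of collagen types I, III and V, filaments of type VI, and elastic fibres of elastin on a fibrillin scaffold, while each muscle fibre and capillary lies on a basement membrane of laminin, type IV collagen and nidogen. Orbital connective tissue is known as a site of disease in human hyperthyroidism of autoimmune origin.

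All arrays had been scaled to a trimmed mean signal of 149.99, and their medians lay between 47.8 and 58.5. Hyperthyroid 5, as labelled, stood apart from the other 7 in some myosin genes. Myh13, the myosin that marks extraocular muscle, had a signal of 4.17 on it and 5430.0 to 9340.0 elsewhere. Myh3 and Myh8 were also low on it, at 165 and 54.2 against at least 6412 and 7599 elsewhere. Myh7 was higher, at 13030 against 1795 to 4097. Acta1, Ckm, Myh2 and Myh4 on hyperthyroid 5 lay within the range of the other arrays. The main comparisons are therefore given with and without that array. Gapdh is measured near both ends of its transcript, and the 3 prime signal exceeds the 5 prime signal more where RNA is short. This Gapdh ratio was 3.91, 4.40, 2.18 and 1.44 for hyperthyroid 1, 2, 3 and 5, against 1.67 to 1.97 in controls. Xist, a transcript of the inactive X chromosome, stood at 367 on hyperthyroid 1 and 351 on control 11 and at 44.5 or less on the rest, while Eif2s3y, on the Y chromosome, was low on the same 2 arrays (6.32 and 16.2 against 533 or more).

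On all 8 arrays no matrix gene passed the test, and the hyperthyroid group held both the highest and the lowest signals of the type I collagen chains. The fit (limma, two-sided, Benjamini-Hochberg adjustment over 18625 probe sets) called 0 of 38 members at an adjusted p under 0.05, where it called 0% of all genes tested. At an unadjusted p under 0.05, 2 members were lower, Col6a2 and Nid1, and 0 higher, against 5.83% of all genes lower and 6.34% higher. In 0 members did the 4 hyperthyroid values lie wholly below or wholly above the 4 controls, which 3.75% and 4.49% of all genes did. The difference was negative for 25 members and positive for 13, with a median of -0.05 on the log2 scale, and it was negative for 48.8% of all genes, whose median was 0.01. With each array centred on its median, 30 of the 38 were negative. That centring moved the median of all probe sets from 0.03 to -0.09.

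Without hyperthyroid 5, 32 of 38 members lay lower in hyperthyroid muscle, still with none past the adjusted threshold. The median difference was -0.21, against 0.02 over all genes, of which 48.1% were lower. limma called 0 members, where it called 0.124% of all genes, and at an unadjusted p under 0.05 it counted 10 members lower and 0 higher, against 8.24% and 7.85% of all genes. The 3 hyperthyroid values lay below all 4 controls in 4 members, Col6a2, Fn1, Thbs2 and Timp2, and above them in 0, against 7.23% and 8.29% of all genes. Bright genes as a whole were lower in this comparison: of the 2089 genes in the brightest of 5 bins of mean signal, 61.8% were lower with a median of -0.09, while 17 of the 18 members in that bin were lower with a median of -0.32. The count of lower members was 26 without hyperthyroid 2 as well and 22 without control 11 as well, and the counts of higher members were then 12 and 16.

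**Figure D1:**
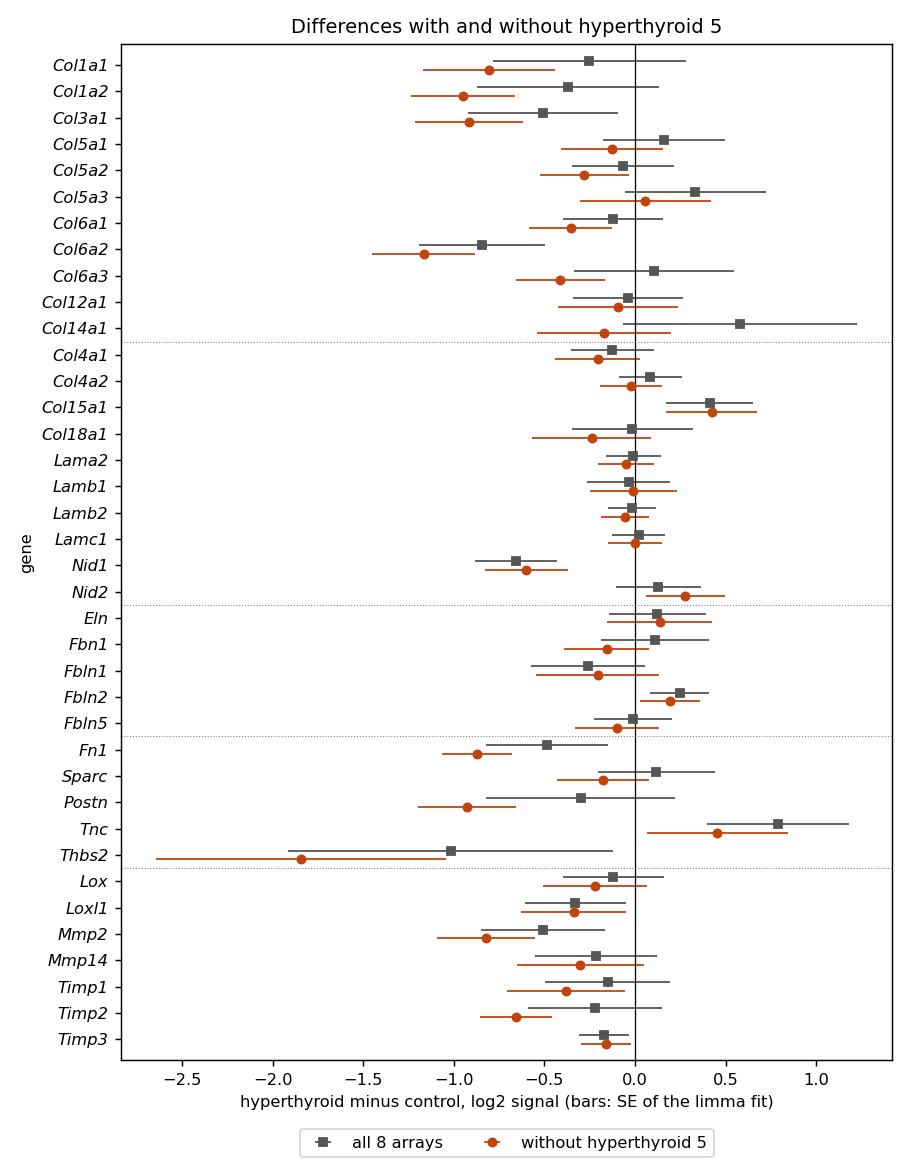
Log2 difference, hyperthyroid minus control (horizontal axis), of each of the 38 matrix genes (vertical axis), with bars for the SE of the limma fit. Grey squares are the fit on all 8 arrays and red circles the fit without hyperthyroid 5, dotted lines separate the classes from interstitial collagens at the top to crosslinking and remodelling at the bottom, and 32 of the red circles lie left of 0.

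The level of a class on an array was taken as the median, over its genes, of the log2 signal minus the control mean. Interstitial collagens stood at -0.49, -0.63, -0.21 and 1.03 for hyperthyroid 1, 2, 3 and 5, compared with -0.48, 0.16, -0.25 and 0.70 for controls 7, 8, 9 and 11. For the adhesive and matricellular genes the hyperthyroid arrays spread further, with -0.74, -1.03, -0.04 and 1.46 in the same order, around controls at -0.34 to 0.30. Basement membrane genes lay between -0.12 and 0.10 on hyperthyroid arrays, inside the control range of -0.24 to 0.40. Elastic fibre genes lay between -0.25 and 0.25, also inside the control range of -0.64 to 0.36. Crosslinking and remodelling genes stood at -0.98 on hyperthyroid 2, below the controls at -0.32 to 0.35, and at -0.24 to 0.18 on the other hyperthyroid arrays. Hyperthyroid 5 was thus above every control in 2 classes, hyperthyroid 2 below every control in 3 and hyperthyroid 1 in 2. The class levels of basement membrane and elastic fibre genes lay within the control range on every hyperthyroid array, although single genes did not: 3 of 5 elastic fibre genes were above every control on hyperthyroid 5, and 3 of 10 basement membrane genes were below every control on hyperthyroid 2. Such counts of genes extreme on an array, here and below, were taken over the members only. The same shares over all genes were not taken, so the counts cannot be read as particular to matrix genes.

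**Figure D2:**
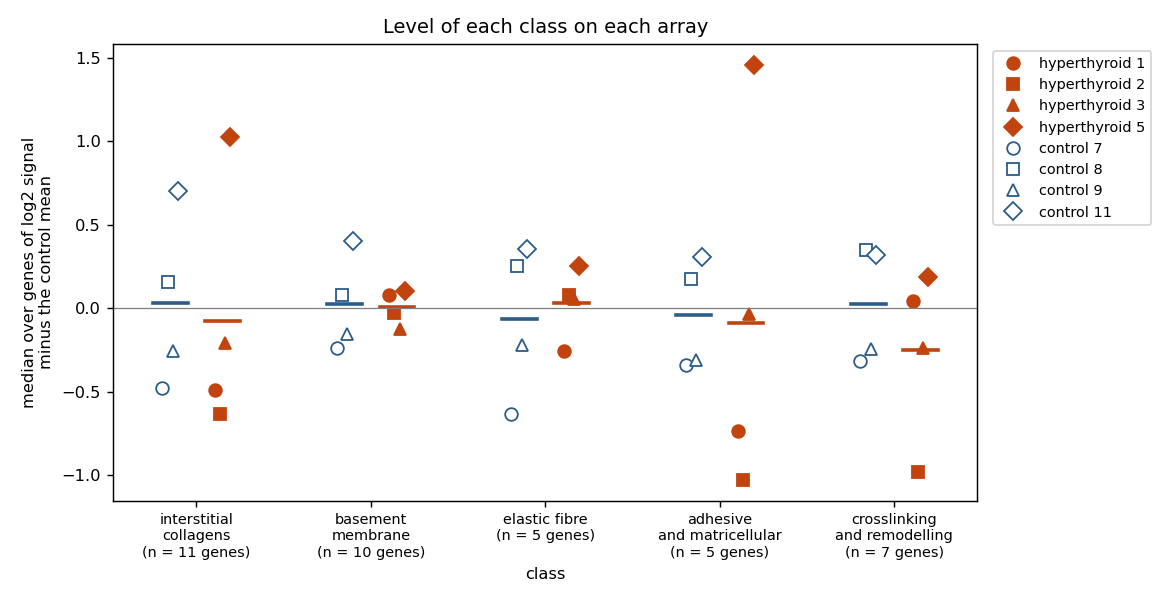
Level of each class (horizontal axis) on each array: the median over the genes of the class of log2 signal minus the control mean (vertical axis). Filled red symbols are hyperthyroid arrays, open blue symbols control arrays and short lines the group means; hyperthyroid 5 is the highest array for interstitial collagens (1.03) and for adhesive and matricellular genes (1.46).

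Interstitial collagens stood highest on the arrays of low Gapdh ratio, in controls as well as in treated rats. Ordered from the lowest ratio to the highest, interstitial collagens stood at 1.03 (hyperthyroid 5, ratio 1.44), 0.70 (control 11, 1.67), 0.16 (control 8, 1.68), -0.25 (control 9, 1.77), -0.48 (control 7, 1.97), -0.21 (hyperthyroid 3, 2.18), -0.49 (hyperthyroid 1, 3.91) and -0.63 (hyperthyroid 2, 4.40). The level was lower at each step of this order except from control 7 to hyperthyroid 3, so that the 4 controls alone followed it without exception. The controls followed the same order in basement membrane (0.40, 0.08, -0.15 and -0.24), elastic fibre (0.36, 0.25, -0.22 and -0.64) and adhesive and matricellular genes (0.30, 0.17, -0.31 and -0.34). In crosslinking and remodelling genes they did not, at 0.32, 0.35, -0.25 and -0.32. Hyperthyroid 5, 3, 1 and 2, by rising ratio, followed it in adhesive and matricellular genes (1.46, -0.04, -0.74 and -1.03). They did not in basement membrane (0.10, -0.12, 0.08 and -0.03), elastic fibre (0.25, 0.05, -0.25 and 0.08) or crosslinking and remodelling genes (0.18, -0.24, 0.04 and -0.98). Without hyperthyroid 5, the ratios of the 3 hyperthyroid arrays all lay above those of the 4 controls. With the ratio as a covariate on all 8 arrays, the median difference of interstitial collagens went from -0.07 to 0.56 and that of adhesive and matricellular genes from -0.30 to 0.70. In that fit 29 of 38 members were higher and 9 lower, and the median of all probe sets was 0.03. Without hyperthyroid 5, the covariate took the same 2 medians from -0.36 to 0.09 and from -0.87 to 0.25. There 23 members were higher and 15 lower, and the median of all probe sets was 0.08. Basement membrane genes kept a median near 0 with the covariate, 0.02 on all 8 arrays and -0.05 without hyperthyroid 5. The ratios of controls 11, 8 and 9 lay close together, at 1.673, 1.684 and 1.773, so their order rests on small gaps. Every class was measured on the same arrays, so the orders in different classes are not independent. Hyperthyroid 5, the array of low Myh13 signal, set the low end of the ratio on all 8 arrays. Why levels followed the ratio was not tested.

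**Figure D3:**
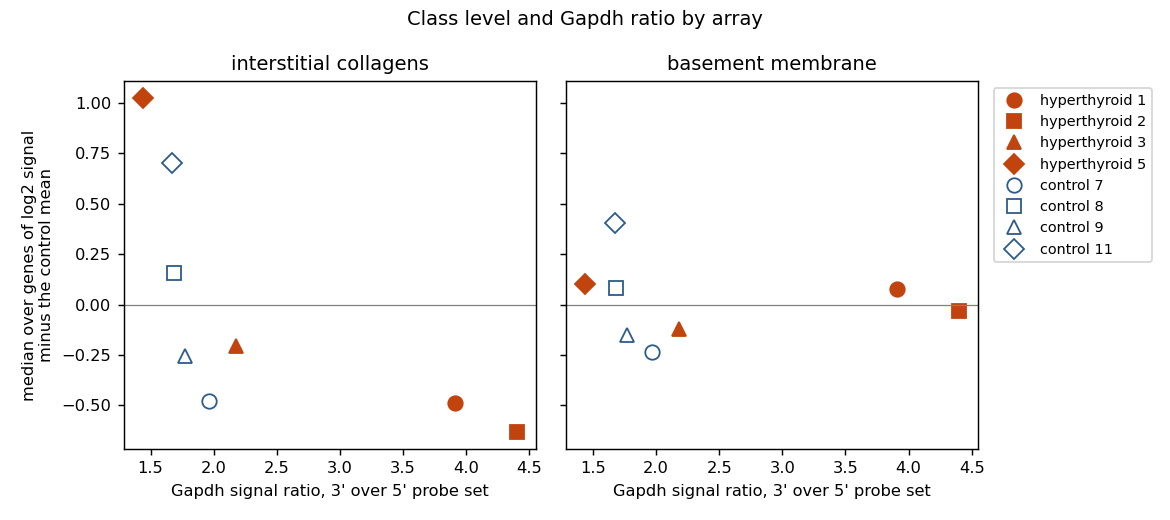
Class level (vertical axis, median over genes of log2 signal minus the control mean) against the Gapdh ratio, 3 prime over 5 prime signal (horizontal axis), for interstitial collagens on the left and basement membrane genes on the right, 1 symbol for each array. Interstitial collagens run from 1.03 at a ratio of 1.44 to -0.63 at 4.40, and basement membrane genes stay between -0.24 and 0.40.

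Fibroblast markers varied between arrays in different ways. The summed signal of 11 of 12 fixed markers was 17560.0, 14020.0, 22120.0 and 31590.0 for hyperthyroid 1, 2, 3 and 5, and ran from 20300.0 to 27960.0 on controls. That sum was carried by a few bright genes, Dcn and Gsn first, which were highest on hyperthyroid 5, at 12540.0 for Dcn against 4688 to 9113 elsewhere and at 10020.0 for Gsn against 4387 to 10000.0. Pdgfra, Lum and Pi16 went the other way and were lowest of the 8 arrays on hyperthyroid 5, at 604, 931 and 53.4 against at least 728, 1406 and 86.9 on the others. Of the 10 markers tested, 7 were lower without hyperthyroid 5, 4 of them at an unadjusted p under 0.05 in limma, with a median of -0.16. Over all genes 48.1% were lower in that fit, 8.24% at that threshold, with a median of 0.02. Among the 11, 0 were at 0, and 2 lay below a signal of 10 on some array, Thy1 and Clec3b. Tendon markers (5 of 7 measured) summed to 3352 on hyperthyroid 5 and to 611 to 1149 on the others, with Tnmd at 643 on hyperthyroid 5 against at most 143. Adipocyte markers (7 of 8 measured) summed to 12430.0 on hyperthyroid 5 and 4400.0 on hyperthyroid 2, against 5522 to 7028 on controls, and leukocyte markers (10 of 10) to 5289 and 1429, against 1733 to 2903. Of the adipocyte sums, Lpl alone gave 5836 and 3491 on hyperthyroid 5 and 2. Leptomeningeal markers (6 of 7 measured) summed to 522 on hyperthyroid 2 and 476 on hyperthyroid 5, and to 3541 or more on the rest. Ptgds carried most of that gap, at 41.4 and 13.9 on hyperthyroid 2 and 5 against 2877 or more on the rest. Crabp2 and Aldh1a2 were also lowest on hyperthyroid 2 and 5, whereas Slc6a13, Slc22a8 and Slc47a1 were not lowest on both. Endothelial markers were higher in 9 of 9 genes tested on all 8 arrays (median 0.24) and in 8 of 9 without hyperthyroid 5 (median 0.23). Oligodendrocyte and astrocyte markers were lower in 7 of 7 in each fit (medians -2.33 and -1.25). Of their 8 markers, 5 lay below a signal of 10 on some array. Over all genes 48.8% were lower on all 8 arrays. Lists for other cell types were measured too and are not summed here. The part of these cell types in the matrix values was not tested. In RNA of whole tissue, fewer cells of a type and less RNA per cell cannot be told apart.

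Among the interstitial collagens, the chains of types I and III lay lower without hyperthyroid 5, and none passed the adjusted threshold in limma. Col1a1 and Col1a2 encode the chains of type I collagen, the main load-bearing fibril, and Col3a1 that of type III, which is made with it. Without hyperthyroid 5, Col1a1 lay at -0.80 ± 0.36 (log2 ± SE), Col1a2 at -0.95 ± 0.29 and Col3a1 at -0.92 ± 0.30, with limma adjusted p of 0.319, 0.165 and 0.189. On all 8 arrays the values were -0.25 ± 0.53, -0.37 ± 0.50 and -0.51 ± 0.41 (limma adjusted p = 0.875, 0.796 and 0.651). Col1a1 and Col1a2 were lower on their dimmer probe sets too, at -1.12 and -1.07 without hyperthyroid 5.

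The spread behind these figures was wide in both groups. Col1a1 signals were 734, 776, 1778 and 4655 on hyperthyroid 1, 2, 3 and 5, against 1259, 2340.2, 1084 and 2962 on controls 7, 8, 9 and 11. Col1a2 stood at 1829, 1444, 2925 and 9799.7 on hyperthyroid arrays and at 2950.0, 4144, 2696 and 6392 on controls. Hyperthyroid 1 and 2 were below every control for both chains, hyperthyroid 5 above every control, and hyperthyroid 3 among the controls. Col3a1 stood at 3498, 3667, 6108 and 13279 on hyperthyroid arrays and at 5667, 9361, 5654 and 14196 on controls, so that here hyperthyroid 5 did not pass control 11. The highest control exceeded the lowest by a median of 2.42-fold over the 11 interstitial collagens, against 1.68-fold over the basement membrane genes.

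The upstream sequences of Col1a2 and, further on, of Postn are shown. Both signals varied widely over the hyperthyroid arrays, by 6.79-fold and 8.03-fold from lowest to highest. Thbs2 and Col14a1 varied more, by 36.93-fold and 12.65-fold, and their sequences are not shown. The Col1a2 sequence was taken from RefSeq (GRCr8, chr4:33518307-33518406, plus strand). It covers the first 100 of the 250 bases before the annotated start, written 5′ to 3′ with motif matches in capitals.
Col1a2: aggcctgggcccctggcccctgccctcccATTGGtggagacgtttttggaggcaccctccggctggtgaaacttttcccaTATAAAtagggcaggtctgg
The motifs searched on both strands were the CCAAT box (CCAAT), the TATA box (letters TATAAA) and the GC box (letters GGGCGG), and the matches shown do not overlap. The first capitals are CCAAT on the minus strand, 221 bases before the start, and the second TATAAA on the plus strand, 170 bases before it. Any matches in the rest of the 250 bases are not listed. Of all 33469 rat windows of 250 bases before a start, 34.0% hold CCAAT, 12.9% TATAAA and 30.5% GGGCGG, and of the 25 members with a window, 8, 3 and 16 hold them. These matches describe letters only.

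Type VI collagen gave the interstitial gene with the smallest p. Its chains, encoded by Col6a1, Col6a2 and Col6a3, assemble into beaded filaments close to the muscle basement membrane, and their loss causes congenital muscular dystrophy in humans. Col6a2 signals were 84.5, 112, 73.1 and 215 on hyperthyroid 1, 2, 3 and 5, compared with 137, 191, 193 and 309 on controls 7, 8, 9 and 11. The first 3 hyperthyroid arrays lay below every control and hyperthyroid 5 within the controls. The difference was -0.85 ± 0.35 on all 8 arrays (limma adjusted p = 0.397) and -1.17 ± 0.28 without hyperthyroid 5 (limma adjusted p = 0.107), and the dimmer probe set gave -0.40 and -1.03.

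The partner chains had smaller differences, at -0.12 for Col6a1 and 0.10 for Col6a3 on all 8 arrays and at -0.36 and -0.41 without hyperthyroid 5. Their hyperthyroid signals ran from 397 to 918 and from 388 to 1753, and their control signals from 455.5 to 899.8 and from 376 to 911. Relative to the mean of these chains, Col6a2 stood at -0.78, -0.24, -1.32 and -1.0 on hyperthyroid 1, 2, 3 and 5, compared with -0.03, -0.16, 0.19 and 0.01 on controls 7, 8, 9 and 11, in log2 units from the control mean. On the brightest Col6a2 probe set, all 4 hyperthyroid values were below all 4 controls, hyperthyroid 5 included. On the dimmer probe set, hyperthyroid 5 had the highest signal of the 8 arrays, 124 against 17.2 to 74.7 on controls. Hyperthyroid 1 and 3 were below every control there, at 14.2 and 15.7, and hyperthyroid 2 was among the controls. The ratio was not taken on that probe set, so the separation is shown for the brightest only. The ratio to the partner chains was chosen after its values were seen and was not tested. With the Gapdh ratio as a covariate Col6a2 stood at -0.49 ± 0.37 on all 8 arrays and at -1.41 ± 0.53 without hyperthyroid 5 (limma adjusted p = 0.612 and 0.986). Col1a1 stood at 0.79 ± 0.29 and 0.56 ± 0.48 in these fits (limma adjusted p = 0.275 and 0.986). Without hyperthyroid 5 the ratios of the groups do not overlap, so ratio and treatment can hardly be told apart there.

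The other interstitial collagens, Col5a1, Col5a2 and Col5a3 of type V, which nucleates fibrils, the type VI partners, and Col12a1 and Col14a1, which decorate fibril surfaces, gave differences of -0.12 to 0.58 on all 8 arrays and -0.41 to 0.06 without hyperthyroid 5. The smallest unadjusted p from limma among these 7 was 0.386 and 0.123. Col14a1 stood at 1112 on hyperthyroid 5 and at 87.9 to 178 on the other hyperthyroid arrays, against 89.5 to 284 in controls. Hyperthyroid 5 was the highest of the 8 arrays in 8 of the 11 interstitial collagens, and hyperthyroid 2 the lowest in 4.

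**Figure D4:**
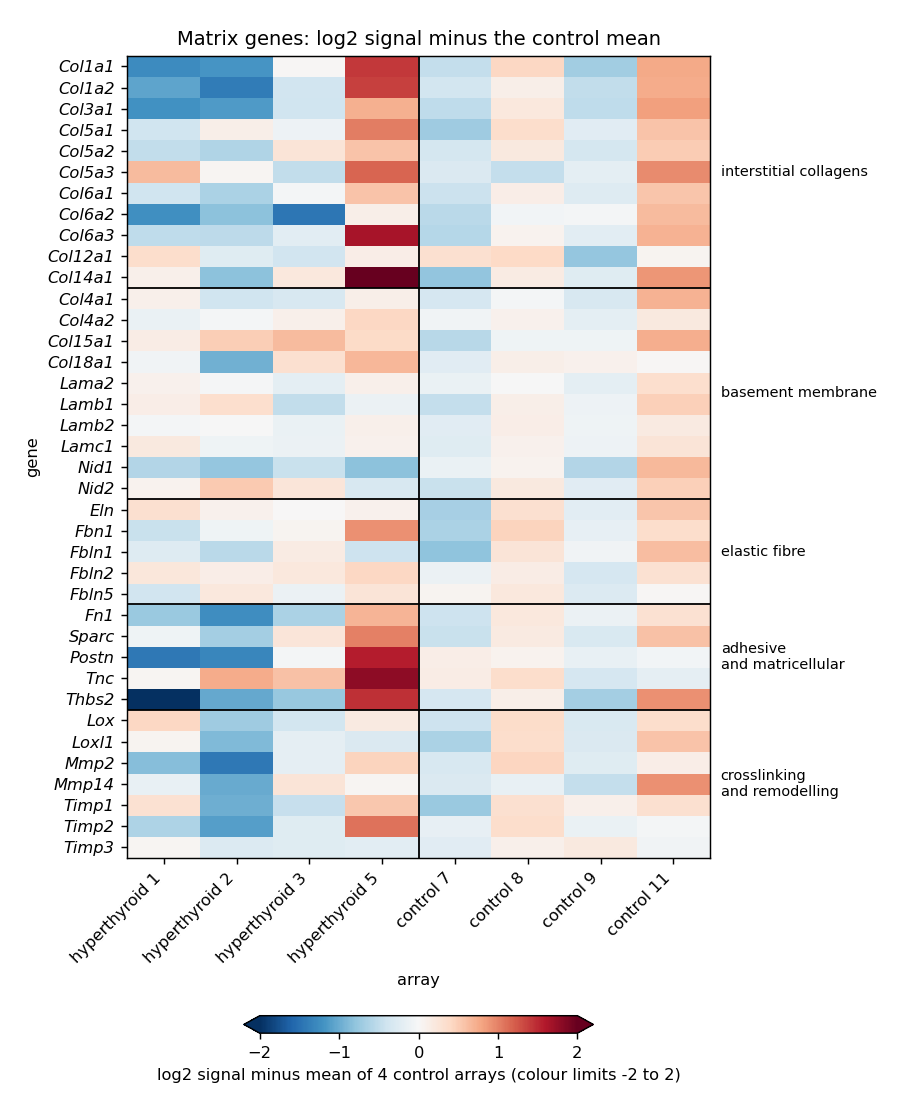
Log2 signal minus the mean of the 4 control arrays (colour, limits -2 to 2) for each of the 38 matrix genes (rows, grouped by class) on each of the 8 arrays (columns). Red is above and blue below the control mean. Hyperthyroid 5 is the highest array in 21 of 38 genes and hyperthyroid 2 the lowest in 15, and the same shares over all genes were not taken.

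No basement membrane gene passed the adjusted threshold in limma, and Nid1, on its brightest probe set, had the smallest p of the class. Laminin genes held close values: Lamc1, the chain common to most laminins, had signals of 1089.5, 896, 875 and 1008 on hyperthyroid arrays and 804, 1004, 889.9 and 1134 on controls. Lama2, the muscle laminin chain lost in a congenital muscular dystrophy, ran from 651 to 808 against 652 to 947, Lamb1 from 331 to 584 against 334 to 643, and Lamb2, a chain concentrated at the neuromuscular junction, from 969 to 1132 against 907 to 1197. The groups overlapped in each of the 4. The 9 basement membrane genes other than Nid1 gave differences of -0.12 to 0.41 on all 8 arrays and -0.24 to 0.42 without hyperthyroid 5, and their smallest unadjusted p from limma was 0.112 and 0.119.

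Col4a1 and Col4a2 encode the chains of the main type IV collagen network and are transcribed in opposite directions from neighbouring starts. Their 76 bases between the annotated starts (RefSeq, GRCr8, chr16:84885521-84885596, plus strand, read 5′ to 3′ toward Col4a1) are shown because a single stretch serves both genes, with GGGCGG on the minus strand, 16 bases before the Col4a1 start, in capitals.
Col4a1: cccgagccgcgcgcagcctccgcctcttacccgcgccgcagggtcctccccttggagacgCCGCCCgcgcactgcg
Col4a1 signals were 570.4 to 814 on hyperthyroid and 590.3 to 1208 on control arrays, and Col4a2 signals 228 to 335 and 219.9 to 287. In neither did the groups separate. Col15a1 and Col18a1, whose products link the basement membrane to the interstitium, stood at 458 to 641 and 46.5 to 142 on hyperthyroid arrays against 281 to 681 and 77.0 to 97.7 on controls. Dimmer probe sets of Col4a1 and Col15a1 gave the opposite sign to the brightest in both fits. That of Col18a1 stood at -1.12 and, without hyperthyroid 5, at -1.63. Its signals were 19.9, 11.8, 35.6 and 81.7 on hyperthyroid 1, 2, 3 and 5, against 39.7 to 95.8 on controls.

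Nid1 encodes nidogen 1, which bridges laminin and type IV collagen. Its signals were 766, 671, 837 and 645 on hyperthyroid 1, 2, 3 and 5, compared with 1041, 1199, 764 and 1795 on controls 7, 8, 9 and 11. Only control 9 fell among the hyperthyroid values. The difference was -0.66 ± 0.23 on all 8 arrays and -0.60 ± 0.23 without hyperthyroid 5 (limma adjusted p = 0.332 and 0.251). Leaving out control 11 as well as hyperthyroid 5 took it to -0.38. Its dimmer probe set, at signals of 30.1 to 81.2, gave 0.17 and 0.36, and the mean of both probe sets -0.24 and -0.12. Nid2, the partner of Nid1 in the nidogen family, had signals of 325 to 582 against 298 to 566 in controls.

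Among the elastic fibre genes, Fbln2 had the smallest p. Fbln2 encodes fibulin 2, which binds elastic fibres and basement membranes. Its signals were 606, 568, 599 and 686 on hyperthyroid arrays and 477, 573, 410.0 and 638 on controls, with overlap between groups and a difference of 0.25 ± 0.16 (limma adjusted p = 0.569), or 0.19 ± 0.17 without hyperthyroid 5 (adjusted p = 0.610). Eln, for elastin, had hyperthyroid signals of 130.1 to 162, inside the controls at 82.3 to 191. Fbn1, for fibrillin 1, reached 1820.0 on hyperthyroid 5 and 714 to 1007 on the other hyperthyroid arrays, against 624 to 1319 on controls. Fbln1 and Fbln5 stood at 75.3 to 123 and 103 to 160.5, against 62.7 to 167 and 111 to 155 on controls. The 4 genes other than Fbln2 gave differences between -0.26 and 0.12 on all 8 arrays and between -0.21 and 0.14 without hyperthyroid 5.

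The class level of adhesive and matricellular genes ran from -1.03 to 1.46 over hyperthyroid arrays, from -1.03 to -0.04 without hyperthyroid 5, and from -0.34 to 0.30 over controls. Fn1 encodes fibronectin, which carries cells on the matrix through integrins. Its signals were 905, 638, 972 and 2402 on hyperthyroid 1, 2, 3 and 5, compared with 1137, 1754, 1391 and 1861 on controls 7, 8, 9 and 11. Hyperthyroid 1, 2 and 3 lay below every control and hyperthyroid 5 above every control. The difference was -0.48 ± 0.34 on all 8 arrays (limma adjusted p = 0.591) and -0.87 ± 0.19 without hyperthyroid 5 (limma adjusted p = 0.0929). With arrays centred on their medians, and without hyperthyroid 5, it was -1.05 and passed the threshold (limma adjusted p = 0.0312), as did Col6a2 at -1.34 (0.0429). That centring moved the median of all probe sets from 0.04 to -0.14, and 315 of the 18625 probe sets then passed, against 29 without it.

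Postn, which encodes periostin, a matricellular protein of collagen-rich and mechanically loaded tissue, was even over the controls and uneven over the treated rats. Its signals were 424, 460.1, 1113 and 3406 on hyperthyroid 1, 2, 3 and 5, compared with 1251, 1204, 1025 and 1099 on controls 7, 8, 9 and 11. The 4 controls lay within 1.22-fold of each other, while the hyperthyroid arrays fell below, within and above them. The difference was -0.30 ± 0.52 on all 8 arrays and -0.93 ± 0.27 without hyperthyroid 5 (limma adjusted p = 0.846 and 0.158). With hyperthyroid 3 also left out it was -1.37 and passed (limma adjusted p = 0.00458). That fit kept only hyperthyroid 1 and 2, the arrays of highest Gapdh ratio, in the treated group. It called 144 of 18625 probe sets, against 29 with hyperthyroid 3 kept. With hyperthyroid 1 left out instead, the Postn difference was -0.67 (limma adjusted p = 0.363). The 150 bases before the annotated Postn start (RefSeq, GRCr8, chr2:140677911-140678060, plus strand) hold TATAAA, in capitals, 44 bases before the start.
Postn: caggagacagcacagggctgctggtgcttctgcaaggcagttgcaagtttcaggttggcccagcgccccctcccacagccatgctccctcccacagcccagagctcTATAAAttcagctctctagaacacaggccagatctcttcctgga

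The remaining adhesive and matricellular genes went in different directions. Thbs2, for thrombospondin 2, which limits vessel growth and shapes fibrils, had signals of 4.20, 27.7, 33.5 and 155 on hyperthyroid arrays and 44.7, 61.3, 35.1 and 106 on controls. Hyperthyroid 1, 2 and 3 were below every control, and several of these values lie near the filter level of 28.2. The difference was -1.02 ± 0.90 on all 8 arrays and -1.84 ± 0.80 without hyperthyroid 5 (limma adjusted p = 0.675 and 0.300). Without hyperthyroid 1, which had the signal of 4.20, these became -0.11 and -0.89, and with 32 added to all signals -0.33 and -0.79. Tnc, for tenascin C, a protein of tendon and of repair, stood at 47.6, 77.0, 69.2 and 159 on hyperthyroid arrays and 51.2, 59.2, 36.7 and 40.9 on controls. Hyperthyroid 2, 3 and 5 were above every control, and the difference was 0.79 ± 0.39 on all 8 arrays (limma adjusted p = 0.470) and 0.46 ± 0.39 without hyperthyroid 5 (0.611). Sparc, the collagen-binding osteonectin, ran from 845 to 2706 against 990 to 2029.

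**Figure D5:**
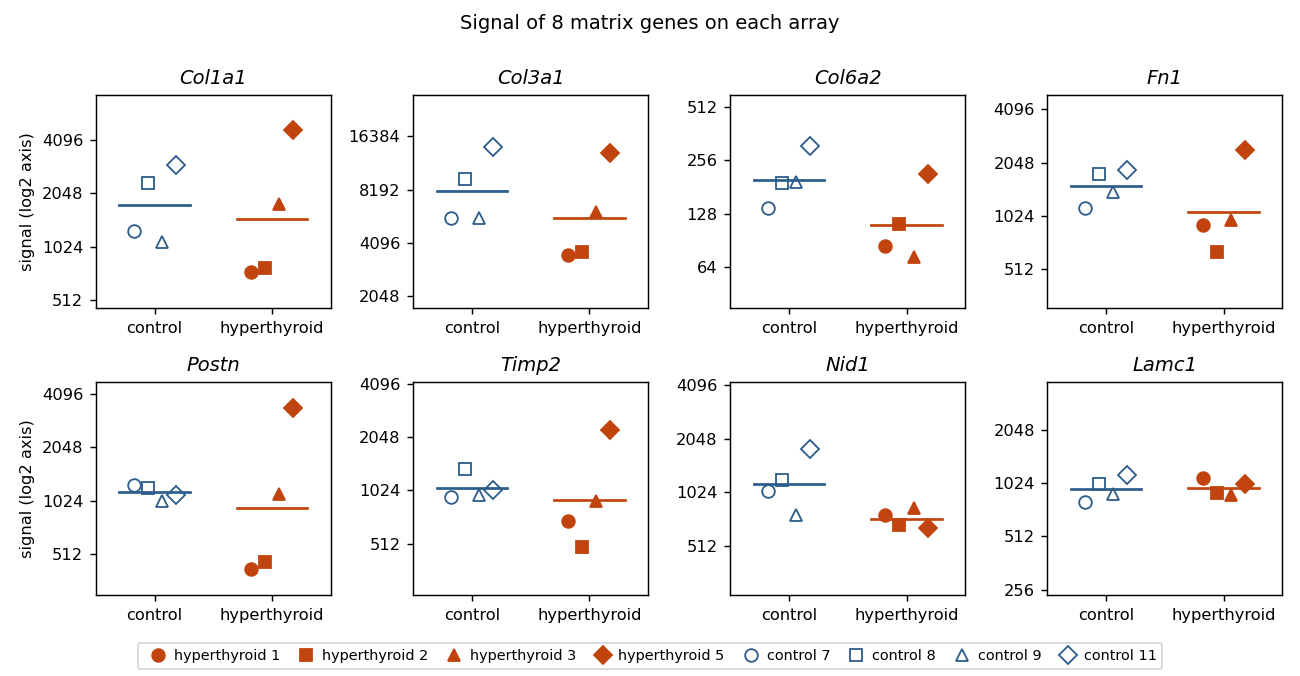
Signal (vertical axis, log2 spaced) of 8 matrix genes on control arrays (open blue) and hyperthyroid arrays (filled red), with a short line for the geometric mean of each group; the symbol shape gives the array. Fn1 lies at 638 to 972 on hyperthyroid 1, 2 and 3 and at 2402 on hyperthyroid 5, around controls at 1137 to 1861, while Lamc1 overlaps throughout.

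All 7 crosslinking and remodelling genes had negative differences in both fits, with medians of -0.22 on all 8 arrays and -0.34 without hyperthyroid 5, and none passed the adjusted threshold in limma. Hyperthyroid 2 was the lowest of the 8 arrays in 7 of 7. Without hyperthyroid 2 on top of hyperthyroid 5 the median was -0.08. Mmp2 encodes the gelatinase that cleaves type IV collagen and denatured collagen, and Timp2 an inhibitor that also takes part in its activation. Mmp2 stood at 315, 209.9, 499.8 and 771 on hyperthyroid arrays and at 456, 763, 479 and 625 on controls. Timp2 stood at 686, 492, 891 and 2244 on hyperthyroid arrays and at 939, 1345, 959 and 1028 on controls, so that hyperthyroid 1, 2 and 3 were below every control and hyperthyroid 5 above.

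Without hyperthyroid 5, Mmp2 lay at -0.82 ± 0.27 and Timp2 at -0.66 ± 0.20 (limma adjusted p = 0.193 and 0.164), and on all 8 arrays at -0.51 ± 0.34 and -0.22 ± 0.37 (0.581 and 0.837). Without hyperthyroid 2 on top of hyperthyroid 5 they stood at -0.52 and -0.43. Their dimmer probe sets had the opposite sign, 0.73 for Mmp2 and 0.23 for Timp2 without hyperthyroid 5, and with the mean over probe sets Mmp2 was at -0.05 and Timp2 at -0.21. All tested probe sets of a gene had the same sign in 12 of the 20 members with more than 1 in that fit, and in 11 of 20 on all 8 arrays. Both type I chains and Col6a2 were among them in each fit.

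Lox and Loxl1, the lysyl oxidases that crosslink collagen and elastin, had hyperthyroid signals of 154 to 337 and 271 to 516, against 189 to 326 and 322 to 739.6 on controls. Mmp14, the membrane-bound activator of Mmp2, ran from 116 to 277.5 against 168 to 437. Timp1 ran from 121 to 349 against 143 to 300.4, and Timp3, the inhibitor held in the matrix, from 1346 to 1685 against 1396 to 1868. The groups overlapped in each. The 5 genes of this class other than Mmp2 and Timp2 gave differences of -0.33 to -0.12 on all 8 arrays and of -0.38 to -0.16 without hyperthyroid 5.

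Other genes of the matrix pathway were split in direction. limma called 0 genes of 7 further lists at an adjusted p under 0.05 in both fits, where it called 0% of all genes on all 8 arrays and 0.124% without hyperthyroid 5. Without hyperthyroid 5, collagen processing enzymes were lower in 8 of 16 tested genes (median -0.07, with 4 lower and 2 higher at an unadjusted p under 0.05). Over all genes of that fit, 48.1% were lower (median 0.02), and 8.24% were lower and 7.85% higher at that unadjusted threshold. Other collagens were lower in 7 of 14 (median -0.03, 0 lower and 1 higher), and other metalloproteinases and inhibitors in 7 of 14 (median -0.04, 0 and 1). Further laminins and basement membrane genes were lower in 3 of 8 (median 0.30, 0 and 1). Further elastic fibre and matrix glycoproteins were lower in 16 of 28 (median -0.19, 4 and 0), integrins and other matrix receptors in 10 of 16 (median -0.13, 1 and 2), and ligands, receptors and transducers of transforming growth factor beta in 7 of 15 (median 0.04, 0 and 2). On all 8 arrays the medians of these lists ran from -0.27 for other collagens to 0.22 for further laminins.

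Control 11, which with hyperthyroid 1 carried the high Xist signal, was the highest of the 8 arrays in 13 of 38 members, 7 of them basement membrane genes. With a block for the Xist and Eif2s3y pattern, 25 members were lower on all 8 arrays and 33 without hyperthyroid 5, and Fn1 stood at -0.90 in the latter.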

How the data were processed

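The authors deposited 1 intensity per probe set and array on a linear scale; per the submitters' processing notes the software was GCOS, with no version, and background correction and summary are not given in the sources used here. These deposited values already shared a trimmed mean. Signals below 1 (0.669% of values) were set to 1 and taken to log2, 57 control probe sets were left out, and the upper 60% of probe sets by mean signal were tested with limma 3.58.1 in R 4.3.3 (lmFit, eBayes with trend, threshold 0.05). Of 31042 probe sets, 20826 had 1 symbol, 436 several and 9780 none; all 38 members matched a reference gene by identifier with the same symbol. Probe sets were compared in level for the filter, the brightest probe set of a gene, the signal bins and the marker sums. They were also compared for the Gapdh ratio and for the Xist and Eif2s3y block, and otherwise not. The number of arrays limits precision.

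Members and lists were chosen with earlier results of these data known. Fold changes are given for members with an unadjusted p under 0.05 in either fit or the smallest p of their class, which are 12 genes, and for collagen VI chains and dimmer probe sets chosen after their values were seen. The groups share no replicate number. Alternatives were other normalizations, filters, offsets, variance priors, array weights, covariates, probe set means and leaving out each array. The fit was tested on simulated data. The design names 8 rats and there are 8 samples, but no label ties an array to a rat, so p-values measure the spread between arrays.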

Additional observations from a re-analysis of the deposited data

Results flagged for a closer look

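In 4 of 86 groups of 4 values tested (76 of single members and 10 of class levels), 1 array lay far from the other 3. Member signals were taken here on the linear scale and class levels on the log2 scale. For normally distributed values about 1 in 20 groups would be flagged, and that distribution was not checked. Hyperthyroid 5 was high in Col6a3, at 1753 against 388 to 484 on the other hyperthyroid arrays, and in Col14a1, at 1112 against 87.9 to 178. Control 11 was high in Col5a3, at 236 against 88.4 to 107 on the other controls, and in Mmp14, at 437 against 168 to 209.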

How the results depend on the processing

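With the Gapdh ratio as a covariate on all 8 arrays, 10 members had an unadjusted p under 0.05 in limma, 1 lower and 9 higher. That fit called 8 of 18625 probe sets, against 0 without the covariate. The share of all genes at an unadjusted p under 0.05 was taken only for the main fits, so none stands beside the unadjusted counts of this section. The class medians of interstitial collagens and of adhesive and matricellular genes were 0.56 and 0.70 with the covariate. Col1a1 (0.79), Col1a2 (0.62), Col3a1 (0.24), Fn1 (0.14), Postn (0.79), Thbs2 (0.37), Mmp2 (0.16) and Timp2 (0.51) turned positive. Without hyperthyroid 5 that covariate left 1 member with an unadjusted p under 0.05, gave medians of 0.25 for adhesive and matricellular and 0.037 for crosslinking and remodelling genes, and turned positive Col1a1 (0.56), Col1a2 (0.056), Col3a1 (0.013), Postn (0.25), Mmp2 (0.26) and Timp2 (0.037). The cause was not tested. On all 8 arrays the unadjusted count was 1 without a variance trend and 0 with the mean over probe sets, which turned positive Mmp2 (0.20) and Timp2 (0.060). Median centring called 2 members without hyperthyroid 5, where it called 315 of all 18625 probe sets against 29 and moved their median from 0.04 to -0.14. Leaving out each array in turn gave unadjusted counts of 1 to 10 on all 8 arrays and called counts of 0 to 1 without hyperthyroid 5. The 1 was Postn without hyperthyroid 3, in a fit that kept hyperthyroid 1 and 2 and called 144 of 18625 probe sets against 29. On all 8 arrays, leaving out 1 array took the adhesive and matricellular median from -0.87 (without hyperthyroid 5) to 0.077 (without hyperthyroid 1). It took Col1a1 from -0.80 to 0.084, Postn from -0.93 to 0.077 and Timp2 from -0.66 to 0.072. Lower members then numbered 16 without hyperthyroid 2 and 17 without control 11. Quantile normalization, no filter, a robust fit, array weights, 32 added and the Xist block reversed no named member and moved no class median beyond the control spread, and no count of members by over 1.5 times. The filter at the upper 40% left out Tnc and Thbs2. No paired analysis was possible because the groups share no replicate number. The number of arrays limits the precision.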
